A study of Mus musculus with 12 samples.

Results

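The effect of ESR1 loss on the oviduct of PMSG-treated mice was examined by setting the 3 PMSG-treated ESR1KO arrays against the 3 PMSG-treated WT arrays, which are 6 of the 12 arrays of the series. ESR1 is estrogen receptor alpha, and PMSG is pregnant mare serum gonadotropin, a hormone that makes ovarian follicles grow and secrete estradiol. The mice were immature C57BL/6 females that were 23 days of age when given 5 IU PMSG, and whole oviducts were taken 48 h later. The ESR1KO mice were ESR1-/- with or without ZP3Cre, a transgene active in the oocyte that had served to delete the floxed gene in the germ line, so that the deletion was in all cells and not only in the oviduct. The WT mice were their sibling controls, ESR1flox/- with or without ZP3Cre, and thus had 1 floxed and 1 deleted copy of the gene. The RNA on an array was a pool from 3 to 4 mice, whose values it averages, and the methods state that different mice were used for each replicate. The 3 arrays of untreated WT mice of 23 days share the row order of these 6. They were fitted together with the 6, so that they enter the estimate of the spread behind every SE, adjusted p and call. Their levels are given beside the 6 as a description. The 3 untreated ESR1KO arrays follow another row order and were not compared here.

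The oviduct carries the egg and the early embryo through a tube of ciliated and secretory epithelial cells, stroma and smooth muscle. Estradiol binds ESR1 in epithelium, stroma and muscle, and the bound receptor changes transcription either at estrogen response elements in DNA or through other transcription factors. Estrogen is known to act on secretion, ciliary beating and muscle contraction in this organ.

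Values are log2 expression signals, so that a difference of 1 is a 2-fold change. The arrays had medians of 5.63 to 5.75. On each, 41.5% to 42.3% of signals fell below 4, a level taken as near background. A fold change against a group near background depends on the background correction and is uncertain. PMSG-treated WT replicate 3 stood apart, with correlations across rows of 0.969 to 0.974 with the other 2 arrays of its group, and 10.9% of its rows lay at least 1 from their mean, against 0.829% to 5.84% for the other 8 arrays. The probe set names of the deposited table do not match the rows of these columns. A row was therefore named only where the study's list of changed genes, as far as it was used here (alphabetically up to Slc27a2), identified it by its printed fold changes. These served as a key alone, but a gene located in this way has the study's fold change by construction. All 1997 listed rows were located, of which 1914 had 1 gene symbol. These genes had been chosen in the study as changed on these arrays, so that counts of located genes are descriptions and not independent evidence. Oviductal identity could be checked only on the untreated ESR1KO arrays, where the oviductal glycoprotein Ovgp1 lay at 15.90 to 15.97, the cilia regulator Foxj1 at 11.51 to 11.84 and the smooth muscle gene Acta2 at 14.47 to 14.97.

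After PMSG, more oviductal mRNAs were higher than lower in the absence of ESR1, whereas the largest differences were decreases. Of 45101 rows (probe sets), 2022 (4.48%) were called in limma, that is, differed by 2-fold or more with an adjusted p under 0.05. Of these, 1245 (2.76%) were higher and 777 (1.72%) lower in PMSG-treated ESR1KO, and the 3 arrays of each group lay apart in all of them. Over all rows, the 3 PMSG-treated ESR1KO arrays lay above the 3 PMSG-treated WT arrays in 11.5% and below them in 8.08%. The called rows had a median log2 difference of 1.64 when higher and -1.73 when lower, and the median over all rows was 0.01. Differences of at least 4 on the log2 scale were found for 37 higher and 70 lower rows, and of at least 6 for 2 higher and 12 lower rows. Leaving out PMSG-treated ESR1KO replicate 3 gave 1248 called rows, and leaving out PMSG-treated WT replicate 3 gave 2422. The latter array was the lowest of its group in 795 of the 1245 rows called higher (63.9%) and in 474 of the 777 called lower (61%). Over all rows it was the lowest in 51.1%. In whole tissue, fewer cells of a type and less RNA per cell cannot be told apart. This applies to every difference below.

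**Figure D1:**
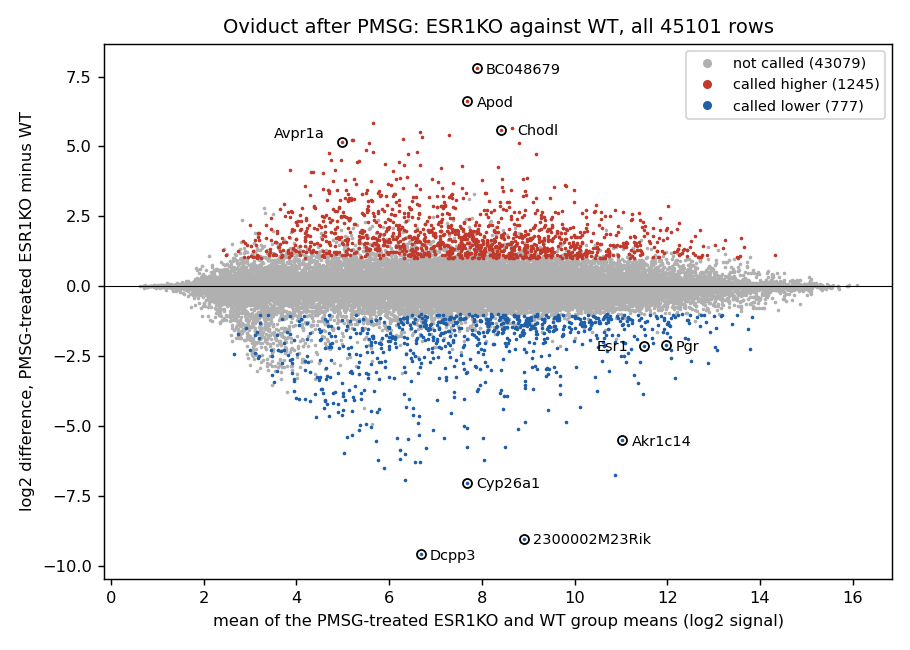
Log2 difference between PMSG-treated ESR1KO and PMSG-treated WT (3 arrays each) against the mean of the 2 group means in log2 signal, 1 point per row of the table. Red points are the 1245 rows called higher, blue points the 777 called lower and grey points the rows not called; circles mark genes named in the text, with Dcpp3 and 2300002M23Rik lowest and BC048679 highest.

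Of the 1914 located genes, 931 (48.6%) were called, 550 (28.7%) higher and 381 (19.9%) lower, and the median log2 difference was 0.37. The shares of each gene list below are to be read against these percentages. Members of a list that were not located are left out of its counts, which therefore do not describe the whole list. Some genes are counted in several lists. A further 424 located genes had an adjusted p under 0.05 but less than a 2-fold difference, and 1057 called rows could not be named.

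Esr1, the targeted gene, was lower in PMSG-treated ESR1KO. Its signal was 10.11, 10.62 and 10.56 in PMSG-treated ESR1KO and 12.62, 12.82 and 12.21 in PMSG-treated WT, which differed by -2.12 on the log2 scale (SE 0.18; limma, adjusted p = 0.000311). Every ESR1KO array lay below every WT array, but none was near background, and whether the probe set lies within the deleted part of the gene is not known here. Pgr, the progesterone receptor and a classical target of ESR1, read 11.10, 10.69 and 10.96 against 13.21, 13.30 and 12.58 (difference -2.11, SE 0.19, adjusted p = 0.000367). It thus fell by about the same amount as Esr1. Of the 11 located genes for steroid and nuclear receptors, 4 were higher, 4 lower and 3 not called, and leaving out PMSG-treated ESR1KO replicate 3 left 2 higher and 3 lower.

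Located genes known to respond to estrogen in uterus and breast were mostly lower. Of 19 located members of this list, 12 were lower, 4 higher and 3 not called, with a median log2 difference of -3.05. Leaving out PMSG-treated ESR1KO replicate 3 or PMSG-treated WT replicate 3 gave the same counts. The mean signal over the 19 genes was 7.43 to 7.73 on the PMSG-treated ESR1KO arrays, 9.58 to 10.04 on the PMSG-treated WT arrays and 8.62 to 8.95 on the untreated WT arrays, with no overlap between these groups. The 19 were located because the study had listed them as changed on these same arrays, which by itself favours such a gap. The list was also drawn up with earlier results of these data known. On the array, 33 of its members lie in the alphabetical range used here, and those not located are not counted. Rasd1, a Ras-related protein induced by steroids, read 4.12, 4.52 and 4.79 against 9.40, 10.15 and 10.13 (difference -5.42, SE 0.29, adjusted p = 3e-05). Ramp3, which carries the calcitonin receptor-like receptor to the cell surface as an adrenomedullin receptor, read 1.91, 2.24 and 3.03 against 8.18, 7.91 and 7.21. The difference of Ramp3 was -5.38 (SE 0.46, adjusted p = 0.000281), and its ESR1KO signal was near background. The water channels Aqp8 and Aqp5 were lower by a log2 difference of -5.02 and -4.51 (adjusted p = 5.95e-05 and 0.000123), and both were near background in PMSG-treated ESR1KO. Not every estrogen-responsive gene was lower. Ltf, the secreted iron-binding protein lactoferrin, read 14.01, 14.25 and 13.93 in PMSG-treated ESR1KO and 12.45, 12.80 and 11.98 in PMSG-treated WT (difference 1.66, SE 0.23, adjusted p = 0.00312). The mucin Muc1 (difference 2.44) and the chemokine Cxcl12 (difference 2.07) were also higher, as was the lysosomal protease Ctsd (2.01).

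Genes of retinoid metabolism differed in both directions and by large amounts. Retinol is stored as esters, oxidised in 2 steps to retinoic acid, bound by nuclear receptors and removed by CYP26 enzymes. Of 14 located members, 6 were higher, 5 lower and 3 not called, with a median log2 difference of 0.09. Cyp26a1, which degrades retinoic acid, read 4.53, 3.49 and 4.47 in PMSG-treated ESR1KO and 11.27, 11.68 and 10.64 in PMSG-treated WT (difference -7.03, SE 0.33, adjusted p = 2.42e-05). All 3 ESR1KO arrays of Cyp26a1 were close to the background level and all 3 WT arrays far above it. Lrat, which forms retinyl esters, read 4.95, 4.75 and 4.70 against 10.81, 10.96 and 9.86 (difference -5.74, SE 0.28, adjusted p = 2.42e-05). Adh7, an alcohol dehydrogenase able to oxidise retinol, read 4.21, 3.24 and 2.97 against 9.20, 9.61 and 7.83 (difference -5.41, SE 0.54, adjusted p = 0.000662). These 3 genes, of storage, first oxidation and breakdown, were thus all lower without overlap. Aldh1a3, which makes retinoic acid from retinaldehyde, went the other way and read 7.86, 7.84 and 7.73 against 2.64, 2.69 and 2.46 (difference 5.21, SE 0.24, adjusted p = 2.42e-05). Rarb, a retinoic acid receptor whose transcription is itself induced by retinoic acid, read 6.16, 5.72 and 5.94 against 2.72, 3.29 and 1.97 (difference 3.28, SE 0.40, adjusted p = 0.00188). For Aldh1a3 and Rarb it was PMSG-treated WT that was near background. Other called members included Crabp2 (-4.47) and Rbp4 (-1.01), which were lower, and Dhrs3 (1.28), Aldh1a7 (1.21) and Rarres2 (1.05), which were higher. Neither Aldh1a2, the related retinoic acid-forming enzyme (difference 0.37, adjusted p = 0.489), nor Adh1 (difference -0.19, adjusted p = 0.764) was called.

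The stretches before the start sites of Cyp26a1 and Rarb are shown because both hold a paired half-site of the kind that retinoic acid receptors bind, while the 2 mRNAs differed in opposite directions. The sequences are the 250 bases before the start in the RefSeq promoter table of GRCm38.p6, 5′ to 3′ along the gene, with the half-sites in capitals. The stretch of Cyp26a1 is chr19:37697558-37697807 on the plus strand, and that of Rarb is chr14:16575477-16575726 on the minus strand. For Rarb, a start was shown only if its stretch held the paired half-site. Which start the located row of Rarb measures is not known here.
Cyp26a1: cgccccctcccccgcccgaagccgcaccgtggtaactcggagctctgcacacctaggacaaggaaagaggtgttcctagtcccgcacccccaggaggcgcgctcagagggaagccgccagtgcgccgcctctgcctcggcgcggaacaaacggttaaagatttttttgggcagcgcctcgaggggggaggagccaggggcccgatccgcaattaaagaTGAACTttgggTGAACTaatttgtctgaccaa
Rarb: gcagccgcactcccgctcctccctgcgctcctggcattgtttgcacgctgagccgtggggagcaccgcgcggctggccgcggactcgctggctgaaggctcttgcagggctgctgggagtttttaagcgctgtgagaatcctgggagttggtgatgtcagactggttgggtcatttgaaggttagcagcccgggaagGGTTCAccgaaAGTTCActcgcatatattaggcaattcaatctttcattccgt

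The motif of 2 copies of AGTTCA with 5 bases between them, read on either strand, lay 32 to 16 bases before the start of Cyp26a1. It was found in 7 of the 32851 promoters searched (0.0213%). The promoters searched here and below leave out those of a whole chromosome. The motif of GGTTCA and AGTTCA with 5 bases between them lay 53 to 37 bases before the start of Rarb that was shown. It was found in 2 promoters (0.00609%). Named genes were matched to promoters by symbol, 266 of the 381 called lower and 384 of the 550 called higher. Among their promoters, Cyp26a1 was the only one with the former and Rarb the only one with the latter. Each motif was searched with the exact half-sites of the stretch shown above, and no looser motif covering both was searched. The low counts therefore do not set these 2 genes apart from the other called genes. The full palindrome of an estrogen response element, GGTCA and TGACC with 3 bases between them, was in 21 of all promoters searched (0.0639%). It was in none of the 351 promoters of genes called lower or the 498 of genes called higher. Its half-site GGTCA, on either strand, was in 36.2% of the promoters of genes called lower, 32.1% of those called higher and 35.2% of all. These matches are letters in a window of 250 bases and no measurement of binding.

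Kallikreins were among the most strongly lower genes. Kallikreins are secreted serine proteases, and the mouse kallikrein 1-related genes form a cluster of near copies on chromosome 7. Of 12 located kallikrein and serpin genes, 6 were lower, 4 higher and 2 not called, with a median log2 difference of -1.80, and the same numbers were found without PMSG-treated WT replicate 3. Klk1b24 read 2.67, 3.66 and 3.08 in PMSG-treated ESR1KO and 9.34, 10.09 and 8.57 in PMSG-treated WT (difference -6.19, SE 0.43, adjusted p = 0.000112). Klk1b1 read 2.11, 1.99 and 2.01 against 8.34, 8.18 and 7.52 (difference -5.98, SE 0.21, adjusted p = 7.97e-06). Klk1b21 read 5.67, 5.76 and 5.48 against 11.52, 11.85 and 10.76 (difference -5.74, SE 0.27, adjusted p = 2.42e-05). In untreated WT, Klk1b1 was as low as in PMSG-treated ESR1KO (2.05, 1.97 and 2.01), whereas Klk1b21 lay in between (8.58, 8.41 and 8.85), as did Klk1b24 (6.83, 5.88 and 6.14). Probe sets of such similar genes may also bind transcripts of their neighbours, which was not tested. Serpinb11, of the family of serine protease inhibitors, read 6.01, 6.23 and 6.46 against 11.75, 11.35 and 10.88 (difference -5.09, SE 0.24, adjusted p = 2.42e-05). In contrast, Serpina1b, an alpha-1-antitrypsin, read 7.95, 8.06 and 8.14 against 3.45, 3.73 and 2.62 (difference 4.78, SE 0.31, adjusted p = 8.06e-05), and another kallikrein, Klk8, was higher by 4.04. The kallikrein list thus held both directions.

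The 250 bases before the starts of the 3 kallikrein genes are given to show how alike these genes are outside the coding region. They lie at chr7:43966501-43966750 (Klk1b1), chr7:44102042-44102291 (Klk1b21) and chr7:44187986-44188235 (Klk1b24), all on the plus strand of GRCm38.p6, from RefSeq, 5′ to 3′. Capitals mark the estrogen response element half-site GGTCA or its reverse complement.
Klk1b1: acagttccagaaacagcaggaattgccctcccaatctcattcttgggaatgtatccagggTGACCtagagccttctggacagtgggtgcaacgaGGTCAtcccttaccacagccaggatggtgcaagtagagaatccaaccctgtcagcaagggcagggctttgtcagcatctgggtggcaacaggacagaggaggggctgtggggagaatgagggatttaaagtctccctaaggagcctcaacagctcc
Klk1b21: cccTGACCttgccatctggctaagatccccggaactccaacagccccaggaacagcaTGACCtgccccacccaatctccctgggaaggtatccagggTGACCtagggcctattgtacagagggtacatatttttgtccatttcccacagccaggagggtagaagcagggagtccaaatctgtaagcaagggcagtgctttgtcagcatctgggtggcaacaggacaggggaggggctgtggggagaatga
Klk1b24: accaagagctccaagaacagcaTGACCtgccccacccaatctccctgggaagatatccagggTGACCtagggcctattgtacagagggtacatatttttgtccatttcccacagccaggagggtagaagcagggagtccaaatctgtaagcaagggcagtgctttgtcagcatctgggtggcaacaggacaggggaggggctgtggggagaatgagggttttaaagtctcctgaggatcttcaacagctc

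Where they could be aligned, the stretches of Klk1b21 and Klk1b24 were identical in 210 of 215 bases (97.7%), and that of Klk1b1 matched them in 81.9% and 82.0%. The half-site occurred 2 times in Klk1b1, 3 times in Klk1b21 and 2 times in Klk1b24.

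The largest decrease among located genes over all arrays was that of Dcpp3, which encodes a secreted demilune cell and parotid protein. It read 1.97, 1.77 and 1.92 in PMSG-treated ESR1KO and 12.05, 11.14 and 11.24 in PMSG-treated WT (difference -9.59, SE 0.73, adjusted p = 0.000159). The uncharacterised gene 2300002M23Rik read 5.93, 3.78 and 3.45 against 13.79, 13.97 and 12.52 (difference -9.04, SE 0.62, adjusted p = 0.000105), and its difference was -9.81 without PMSG-treated ESR1KO replicate 1, which passed that of Dcpp3 (-9.63), as it also did with array weights (-10.18 against -9.35). Both mRNAs were far above background in the PMSG-treated WT oviduct and at or close to it in its ESR1KO counterpart. Col6a4, a collagen VI chain, was lower by -5.43 (SE 0.38, adjusted p = 0.00011), and Gria1, a glutamate receptor subunit, by -5.54 (SE 0.34, adjusted p = 6.08e-05). Akr1c14, a hydroxysteroid dehydrogenase of the aldo-keto reductase family, was abundant in both groups at 8.84, 8.05 and 7.94 against 14.27, 13.69 and 13.40 (difference -5.51, SE 0.27, adjusted p = 2.58e-05). Its relative Akr1c19 was higher by 3.75 (SE 0.20, adjusted p = 2.71e-05). Hsd11b2, which inactivates glucocorticoids, read 7.90, 8.36 and 7.94 against 10.83, 10.93 and 12.09 (difference -3.21, SE 0.33, adjusted p = 0.000823).

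**Figure D2:**
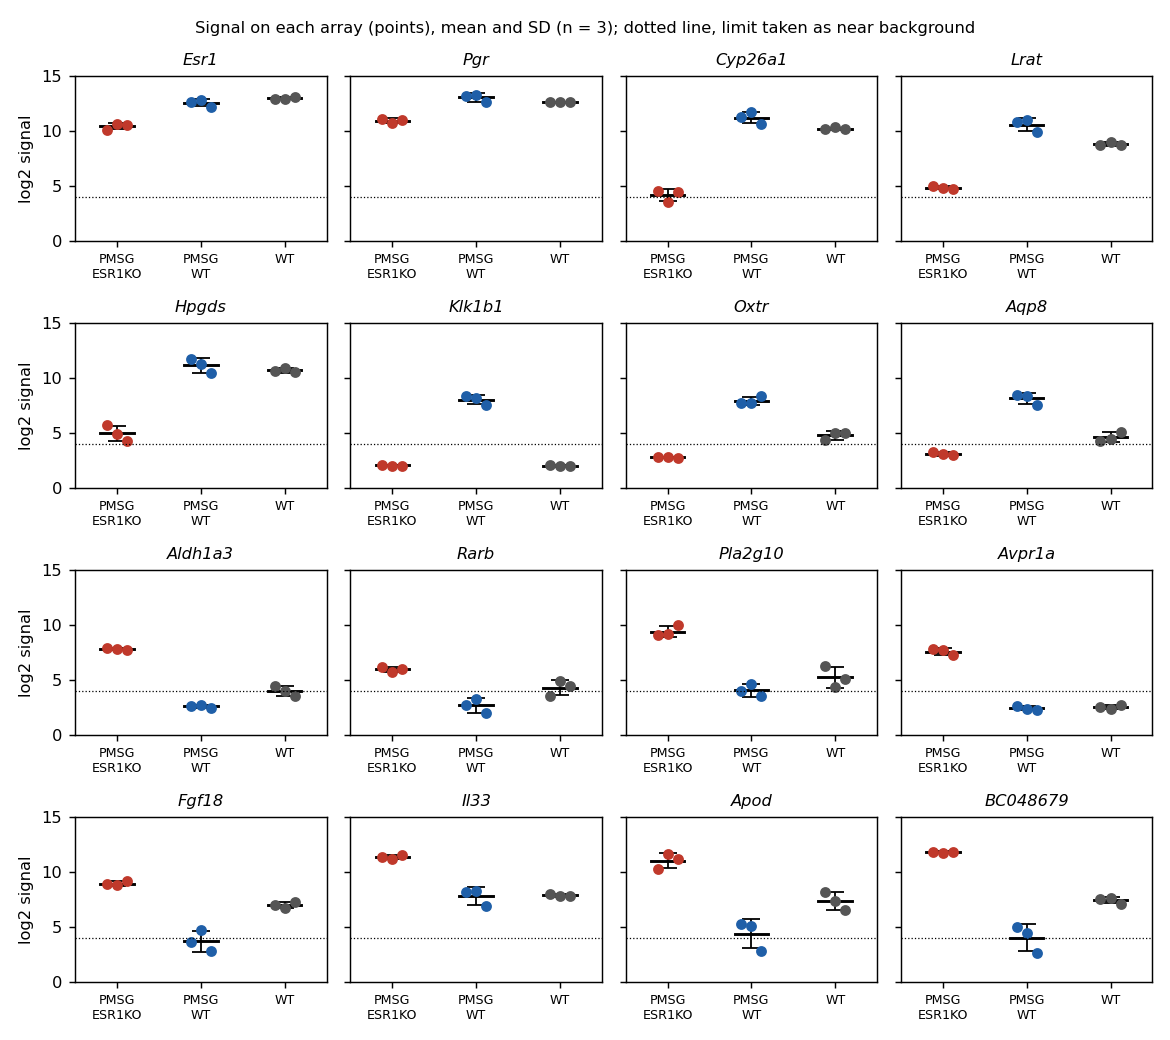
Log2 signal of 16 named genes on each array (points) with the mean and SD (n = 3) for PMSG-treated ESR1KO (red), PMSG-treated WT (blue) and untreated WT (grey); the dotted line at 4 is the level taken as near background. In all 16 genes the red and blue points lie apart, with Esr1 to Aqp8 lower and Aldh1a3 to BC048679 higher in PMSG-treated ESR1KO.

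Among the located genes that were higher, the largest difference was that of BC048679, an uncharacterised transcript, which read 11.82, 11.72 and 11.83 in PMSG-treated ESR1KO and 4.95, 4.42 and 2.61 in PMSG-treated WT (difference 7.80, SE 0.51, adjusted p = 7.72e-05). Apod, the lipid-binding apolipoprotein D, read 10.25, 11.58 and 11.15 against 5.22, 5.10 and 2.82 (difference 6.62, SE 0.67, adjusted p = 0.000729). Cdh16, a cadherin of kidney epithelium, read 11.09, 11.68 and 11.63 against 6.79, 6.54 and 4.12 (difference 5.65, SE 0.61, adjusted p = 0.00103). In these 3 genes, PMSG-treated WT replicate 3 was the lowest array. Chodl, the membrane lectin chondrolectin, differed by 5.59 (SE 0.71, adjusted p = 0.00222), and G6pc2, a glucose-6-phosphatase catalytic subunit, by 5.42 (SE 0.77, adjusted p = 0.00378). Without that replicate the differences were 7.10 for BC048679, 5.84 for Apod, 4.80 for Cdh16, 4.69 for Chodl and 4.35 for G6pc2, and all were still called. Without PMSG-treated WT replicate 2, Chodl differed by 6.19 and G6pc2 by 6.11. Fgf18, a fibroblast growth factor, read 8.90, 8.76 and 9.13 against 3.58, 4.69 and 2.76 (difference 5.25, SE 0.43, adjusted p = 0.000215). Ctnnd2, a catenin of neural cell junctions, was higher by 5.11 (SE 0.51, adjusted p = 0.000674). Lrrtm1, a synaptic adhesion protein, was higher by 4.88 (SE 0.67, adjusted p = 0.00323; 4.28 without PMSG-treated WT replicate 3). The Notch-related ligand Dlk1 was higher by 4.73 (SE 0.58, adjusted p = 0.0019), which became 3.97 without PMSG-treated WT replicate 3 and 5.31 without replicate 2.

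The genes of prostaglandin synthesis and signalling were changed at several steps. Phospholipases A2 release the fatty acid from which cyclooxygenases and terminal synthases make prostaglandins, and these act on muscle and immune cells through receptors. Of 12 located members of this list, 6 were higher, 4 lower and 2 not called, with a median log2 difference of 0.74. Without PMSG-treated ESR1KO replicate 3, 4 were higher and 3 lower. Of the secreted phospholipases A2, Pla2g10 read 9.03, 9.17 and 9.94 in PMSG-treated ESR1KO and 3.93, 4.63 and 3.52 in PMSG-treated WT (difference 5.35, SE 0.50, adjusted p = 0.000445), and Pla2g5 read 10.86, 10.69 and 10.87 against 7.50, 7.28 and 6.12 (difference 3.84, SE 0.34, adjusted p = 0.000331). Ptgs1, a cyclooxygenase, was higher by 1.37. The prostaglandin D synthases differed in opposite directions. Hpgds, the hematopoietic form, read 5.66, 4.87 and 4.29 against 11.71, 11.29 and 10.42 (difference -6.20, SE 0.40, adjusted p = 7.19e-05), whereas Ptgds, the lipocalin form, was higher by 1.61. The receptors Ptger4 (-1.24) and Ptgfr were among the 4 lower members. These also included Paqr8 (-1.40), which is counted with the steroid and nuclear receptors as well and is not a gene of prostaglandin synthesis. Ptgfr, the receptor of prostaglandin F2 alpha, read 5.54, 4.99 and 4.89 against 7.88, 6.97 and 6.14 (difference -1.86, SE 0.43, adjusted p = 0.0345). Its call was lost with the replicate number as a block (adjusted p = 0.0519) and without any single one of PMSG-treated ESR1KO replicates 2 and 3, PMSG-treated WT replicates 1 and 2 and untreated WT replicates 2 and 3 (adjusted p from 0.0516 to 0.137). Ptgr1, which inactivates prostaglandins, was not called (difference 0.36, adjusted p = 0.0705), nor was the phospholipase Pla1a (-0.23, adjusted p = 0.913).

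Receptors for hormones that act on the muscle and vessels of the oviduct were split. Of 10 located members, 5 were lower, 2 higher and 3 not called, with a median log2 difference of -0.97. Oxtr, the oxytocin receptor, read 2.80, 2.82 and 2.75 in PMSG-treated ESR1KO and 7.74, 7.68 and 8.33 in PMSG-treated WT (difference -5.13, SE 0.27, adjusted p = 2.71e-05). Avpr1a, the vasopressin receptor of smooth muscle, showed the opposite picture, at 7.82, 7.68 and 7.21 against 2.61, 2.34 and 2.27 (difference 5.16, SE 0.20, adjusted p = 1.3e-05). Each of these related receptors was near background in 1 genotype and well above it in the other. The vasodilator peptide Adm was lower by -1.83 (SE 0.26, adjusted p = 0.00419), along with its receptor component Ramp3 described above. Of the smooth muscle markers, only Actg2 and Hspb7 were located. Hspb7, a small heat shock protein of muscle, was lower by -3.23 (SE 0.38, adjusted p = 0.00146) and Actg2, a smooth muscle actin, differed by -1.64 and was not called. Their summed log2 signal was 12.76 to 15.04 on the PMSG-treated ESR1KO arrays, 17.75 to 19.28 on the PMSG-treated WT arrays and 17.25 to 18.98 on the untreated WT arrays. The part of smooth muscle content in the receptor differences was not tested.

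Immune genes differed in both directions, and the shares varied from list to list. Of 14 located interleukins and interleukin receptors, 9 were higher, 2 lower and 3 not called, with a median log2 difference of 1.51. Without PMSG-treated ESR1KO replicate 3, 4 were higher and 1 was lower, and without PMSG-treated WT replicate 3, 9 and 1. Il33, an alarmin of barrier epithelium, read 11.33, 11.17 and 11.51 in PMSG-treated ESR1KO and 8.20, 8.30 and 6.88 in PMSG-treated WT (difference 3.55, SE 0.34, adjusted p = 0.00049). Il18r1, the interleukin 18 receptor, read 10.39, 10.59 and 10.46 against 6.62, 6.90 and 5.07 (difference 4.28, SE 0.43, adjusted p = 0.000654). Il18bp, the secreted protein that neutralises interleukin 18, was lower at 3.24, 5.17 and 4.17 against 8.76, 8.80 and 7.99 (difference -4.32, SE 0.47, adjusted p = 0.00103). For the interleukin 18 system, the receptor was thus higher and the inhibitor lower, while Il18 itself had a difference of 0.86 and was not called. Il17rb, a receptor of interleukin 25, was higher by 3.85 (SE 0.36, adjusted p = 0.000449), and Osmr, the oncostatin M receptor, by 2.12 (SE 0.15, adjusted p = 0.000134). Csf3, the granulocyte colony-stimulating factor, was lower and read 4.32, 4.08 and 4.25 against 9.02, 9.38 and 8.08 (difference -4.61, SE 0.35, adjusted p = 0.000154). Il1rap and Il16 were not called (differences 0.61 and 0.69, adjusted p = 0.0525 and 0.0878).

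The calprotectin subunits S100a8 and S100a9, which neutrophils carry, and their receptor Ager were higher. Ager read 6.26, 7.67 and 7.10 in PMSG-treated ESR1KO and 2.04, 2.72 and 2.74 in PMSG-treated WT (difference 4.51, SE 0.36, adjusted p = 0.000201). S100a8 read 6.55, 8.57 and 9.17 against 4.44, 3.82 and 2.90 (difference 4.38, SE 0.72, adjusted p = 0.00766). S100a9 read 4.65, 7.90 and 8.21 against 3.18, 2.36 and 2.74 (difference 4.16, SE 0.82, adjusted p = 0.0172). Replicate 1 was the lowest ESR1KO array in all 3 genes, and without it S100a8 differed by 5.15 and S100a9 by 5.30. The call of S100a9 was lost without PMSG-treated ESR1KO replicate 2 (difference 3.67) or 3 (difference 3.51) and without PMSG-treated WT replicate 2 (adjusted p from 0.0562 to 0.0682). Of all 8 located genes of the S100 and antimicrobial list, which includes Ager, 7 were higher and 1 lower. Without PMSG-treated ESR1KO replicate 3, 6 were higher and 1 lower. The higher members Ltf, Lyz1 and Lyz2 are counted in other lists as well. The lower one was Bpifc, of the bactericidal and permeability-increasing family (difference -3.11, SE 0.49, adjusted p = 0.00617, and -3.74 without PMSG-treated WT replicate 3). Higher members included the lysozyme Lyz1 (1.33) and the lipocalin Lcn2 (1.38).

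Of 5 located complement genes, 4 were higher and none lower. The classical pathway proteases C1ra and C1s differed by 1.85 (SE 0.16, adjusted p = 0.000285) and 1.54 (SE 0.18, adjusted p = 0.00131), C2 by 1.80 (SE 0.16, adjusted p = 0.000408) and their inhibitor Serping1 by 1.45 (SE 0.15, adjusted p = 0.000673). The proteases and the protein that restrains them were therefore higher together. Clu differed by 0.01 and was not called. Leaving out replicate 3 of either group also gave 4 of 5.

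Of 10 located chemokine and chemokine receptor genes, 4 were higher, 2 lower and 4 not called. Without PMSG-treated ESR1KO replicate 3 only 1 was called higher. Cxcl12 read 12.28, 12.99 and 12.89 in PMSG-treated ESR1KO and 10.85, 10.81 and 10.28 in PMSG-treated WT (difference 2.07, SE 0.23, adjusted p = 0.00103). Its decoy receptor Cxcr7, which takes up Cxcl12, was lower and read 10.28, 9.86 and 10.06 against 12.17, 11.97 and 11.25 (difference -1.73, SE 0.25, adjusted p = 0.00448), and its signalling receptor Cxcr4 had a difference of 0.68 and was not called. Cxcl14 was lower by -1.73 (SE 0.30, adjusted p = 0.00937). Located genes of the interferon response and antigen presentation were more often lower than higher. Of 101 on the array in the alphabetical range, 11 were located, of which 4 were lower, 1 higher and 6 not called. Without PMSG-treated ESR1KO replicate 3, 2 were lower. Gbp8, an interferon-inducible guanylate-binding protein, read 8.13, 7.66 and 7.49 against 12.10, 12.10 and 10.59 (difference -3.84, SE 0.40, adjusted p = 0.000861), and Ifi27l2a was lower by -1.99 (SE 0.18, adjusted p = 0.00037).

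The leukocyte markers that could be located were mostly higher. Of 33 on the array, all within the alphabetical range used here, 7 were located, of which 6 were higher and 1 lower. The rest of the 33 were not located, so that the 7 are a selection of markers that the study had listed as changed. Over the 7 genes the summed log2 signal was 65.8 to 70.6 on the PMSG-treated ESR1KO arrays, 57.7 to 62.5 on the PMSG-treated WT arrays and 60.1 to 63.5 on the untreated WT arrays. None of the 7 was at 0. Higher members were Cd74, the invariant chain of antigen-presenting cells (difference 2.37, SE 0.43, adjusted p = 0.0127), the B cell receptor component Cd79b (1.77, adjusted p = 0.00323, with PMSG-treated WT near background) and Csf1r, the receptor that macrophages depend on (1.62, SE 0.25, adjusted p = 0.00594). The macrophage receptor Mrc1 lay at the limit of 2-fold (1.00, adjusted p = 0.0106) and was under 2-fold without PMSG-treated ESR1KO replicate 1 (0.99) or 2 (0.94) and without PMSG-treated WT replicate 3 (0.79). Cd74 was not called in the unmoderated model of the methods (adjusted p = 0.0681). The lower member was Kit, the stem cell factor receptor of mast cells and pacemaker cells (difference -2.26, SE 0.37, adjusted p = 0.00805). The part of leukocyte number in the immune differences above was not tested. No located endothelial marker was called higher. Of 5 located, 4 were not called (differences -0.31 to 0.08), among them Flt1 (-0.13, near background in both groups) and Esam (0.08). The other, Pecam1, was called lower (difference -1.26, limma, adjusted p = 0.0472). The mean signal over the 5 genes was 6.90 to 7.20 in PMSG-treated ESR1KO and 7.34 to 7.42 in PMSG-treated WT.

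**Figure D3:**
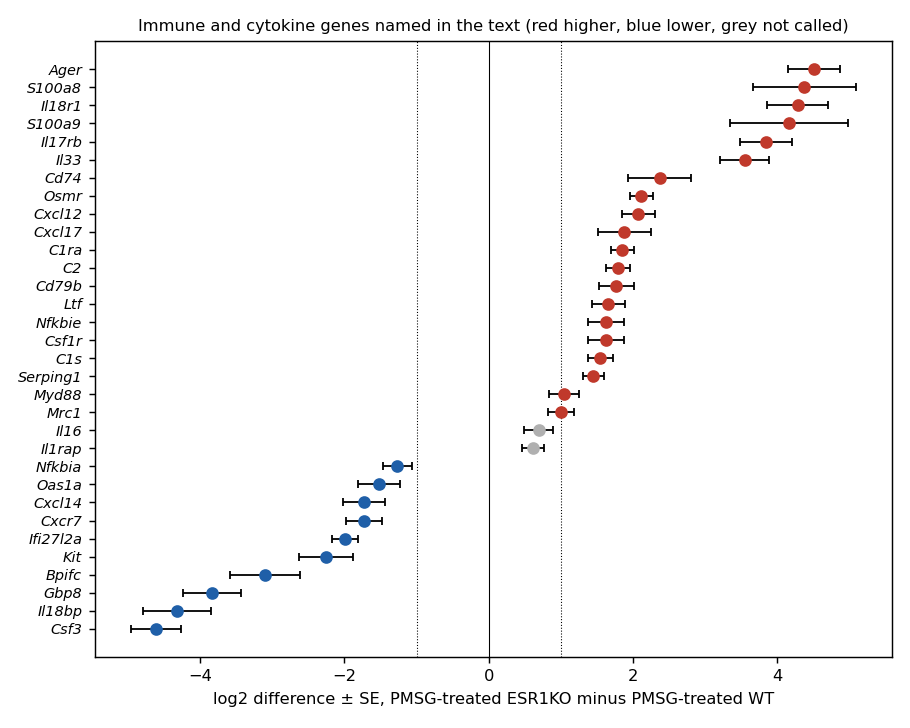
Log2 difference between PMSG-treated ESR1KO and PMSG-treated WT with its standard error (3 arrays per group, limma) for immune and cytokine genes named in the text. Dotted lines mark a 2-fold difference; Ager, S100a8, Il18r1 and S100a9 are the highest, and Csf3, Il18bp and Gbp8 the lowest.

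Genes of epithelial junctions and the cell surface differed in both directions. Of 10 located claudin and tight junction genes, 6 were higher, 2 lower and 2 not called, with a median log2 difference of 1.35. Cldn4, a claudin that seals epithelium, read 6.90, 8.35 and 9.28 in PMSG-treated ESR1KO and 4.33, 4.31 and 4.26 in PMSG-treated WT (difference 3.87, SE 0.55, adjusted p = 0.00377), and 4.51 without PMSG-treated ESR1KO replicate 1. Cldn9 (difference 3.42, SE 0.26, adjusted p = 0.000159) and Cldn11 (3.20, SE 0.27, adjusted p = 0.00025) were higher as well, and Cldn23 was lower by -3.01 (SE 0.28, adjusted p = 0.000474). Of 18 located cadherins, protocadherins and integrins, 7 were higher, 3 lower and 8 not called. The protocadherin Pcdh8 was higher by 3.45 (SE 0.45, adjusted p = 0.00263) and Pcdh17 was lower by -4.65 (SE 0.38, adjusted p = 0.000241). The plakin Ppl, which links keratins to cell junctions, was higher by 2.49 (SE 0.39, adjusted p = 0.00596). Enzymes that build glycan chains on mucins and lipids were split, with 8 of 20 higher and 5 lower, and 5 and 5 without PMSG-treated ESR1KO replicate 3. B3gnt5, which starts lacto-series glycolipids, was higher by 4.73 (SE 0.51, adjusted p = 0.001) and B4galnt2 by 3.33 (SE 0.42, adjusted p = 0.00209). In contrast, B3gnt8 was lower by -4.03 (SE 0.59, adjusted p = 0.00455, and -3.28 without PMSG-treated ESR1KO replicate 1) and B3galt5 by -3.07 (SE 0.40, adjusted p = 0.00252).

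Located matrix and matrix-degrading genes differed in both directions. Of 31 located collagens and matrix proteins, 14 were higher, 6 lower and 11 not called, with a median log2 difference of 0.90. Besides Col6a4, Col25a1, a transmembrane collagen, was lower at 4.56, 4.44 and 4.41 in PMSG-treated ESR1KO and 7.99, 7.88 and 7.38 in PMSG-treated WT (difference -3.28, SE 0.22, adjusted p = 0.000105). Another transmembrane collagen, Col13a1, was higher by the same amount and read 8.68, 9.17 and 9.07 against 5.90, 5.84 and 5.35 (difference 3.28, SE 0.21, adjusted p = 7.72e-05). Emilin2, an elastic fibre protein, was lower by -3.57 (SE 0.51, adjusted p = 0.00376), and by -2.91 without PMSG-treated WT replicate 3, which was its highest array. The fibulins were split, Fbln1 being higher by 2.38 (SE 0.29, adjusted p = 0.00187) and Fbln2 lower by -2.57 (SE 0.43, adjusted p = 0.00826). Among 8 located stromal and fibroblast markers, 4 were higher and 3 lower, with Dpp4 higher by 3.49 (SE 0.54, adjusted p = 0.00559, and 2.78 without PMSG-treated WT replicate 3) and Lum lower by -2.10 (SE 0.31, adjusted p = 0.00464). Of 18 metalloproteases and inhibitors, 10 were higher and 1 lower. Adamts16, a secreted metalloprotease, read 9.44, 9.82 and 9.89 against 4.88, 6.24 and 5.11 (difference 4.31, SE 0.39, adjusted p = 0.000397), Pappa2, which cleaves insulin-like growth factor binding proteins, was higher by 2.83 (SE 0.35, adjusted p = 0.00204), and Adamts15 was higher by 2.64 (SE 0.35, adjusted p = 0.00272).

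Located developmental signalling genes were more often higher than lower. Of 20 located Wnt pathway genes, 13 were higher, 4 lower and 3 not called, with a median log2 difference of 1.52. Without PMSG-treated ESR1KO replicate 3 the numbers were 11 and 3. The mean signal over the 20 genes was 9.01 to 9.12 on the PMSG-treated ESR1KO arrays, 7.91 to 8.33 on the PMSG-treated WT arrays and 8.37 to 8.50 on the untreated WT arrays. Lgr5, an R-spondin receptor of epithelial stem cells, read 8.87, 9.56 and 9.54 in PMSG-treated ESR1KO and 5.49, 6.50 and 5.46 in PMSG-treated WT (difference 3.51, SE 0.33, adjusted p = 0.000445). Its ligand Rspo1 was higher by 2.18 (SE 0.26, adjusted p = 0.00151). Notum, a secreted enzyme that inactivates Wnt proteins, was higher by 3.10 (SE 0.46, adjusted p = 0.00476, and 2.49 without PMSG-treated WT replicate 3), as were the secreted inhibitors Sfrp1 (1.97) and Sfrp2 (1.53). Other inhibitors in the list went the other way, with Dkk3 lower (-1.53) and with Frzb (-1.01) and Dkk2 (-0.99) not called, and the R-spondin receptor Lgr6 was lower (-1.43). The feedback genes Axin2 (1.51) and Rnf43 (1.57), whose transcription Wnt signalling is known to induce, were higher too. Frizzled receptors were divided, with Fzd1, Fzd3, Fzd7 and Fzd10 higher (1.36 to 1.97) and Fzd5 lower (-1.68).

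Of 31 located growth factors and receptors, 17 were higher, 4 lower and 10 not called, and besides Fgf18 and Csf3 the growth factor Igf2 was higher by 2.66 (SE 0.32, adjusted p = 0.00177). Of 17 axon guidance genes, 11 were higher and 3 lower, and without PMSG-treated ESR1KO replicate 3, 7 and 2. The ephrin receptor Ephb2 was higher by 2.43 (SE 0.22, adjusted p = 0.000427) and the neurotrophin receptor Ntrk3 by 1.86 (SE 0.25, adjusted p = 0.00312), whereas the netrin receptor Dcc was lower by -2.72 (SE 0.40, adjusted p = 0.00473). Of 17 genes of synapses and neurotransmitter receptors, 9 were higher and 4 lower. Gabrp, a GABA receptor subunit of epithelium, read 11.41, 11.80 and 11.27 against 8.76, 9.25 and 7.47 (difference 3.00, SE 0.39, adjusted p = 0.00265), and the secreted pentraxin Nptx1 was lower by -3.31 (SE 0.39, adjusted p = 0.00163). Of the 9 located homeobox, forkhead and related transcription factors, 4 were higher and none lower. Without PMSG-treated ESR1KO replicate 3, 2 were higher, and without PMSG-treated WT replicate 3, 3 were higher and 1 lower. Lhx1 (1.99, SE 0.27, adjusted p = 0.00286) and Osr1 (1.93, SE 0.25, adjusted p = 0.00265), both regulators of urogenital development, were among them. Of 10 located cell cycle genes, 9 were not called and Ccna1 was higher. Without PMSG-treated ESR1KO replicate 3, none was higher and 1 was lower, and without PMSG-treated WT replicate 3, 2 were higher.

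Transport and metabolic genes also differed in both directions. Of 36 located ion channels, aquaporins and pumps, 11 were higher and 12 lower. Of the 5 located proton pump subunits, 1 was higher, 1 lower and 3 not called (Atp6v0d1, Atp6v1e1 and Atp6v0e2, with differences of -0.51, -0.72 and -0.83). Atp6v1b1 was higher at 5.55, 6.28 and 5.99 in PMSG-treated ESR1KO and 1.70, 1.82 and 1.84 in PMSG-treated WT (difference 4.15, SE 0.21, adjusted p = 2.71e-05). Atp6v1c2 was lower and read 3.18, 3.08 and 3.44 against 8.29, 7.50 and 5.79 (difference -3.96, SE 0.56, adjusted p = 0.00372, and -4.66 without PMSG-treated WT replicate 3). On the array, 148 solute carriers lie in the alphabetical range used here. Of the 21 located, 7 were higher and 5 lower, shares near those of all located genes. Without PMSG-treated ESR1KO replicate 3, 3 were higher and 3 lower. The sodium and calcium exchanger Slc24a3 was higher by 1.76 (SE 0.24, adjusted p = 0.00312). Of 13 ABC transporters and lipid-carrying proteins, 7 were higher and 4 lower, with Apoc1 higher by 2.91 (SE 0.44, adjusted p = 0.00501) and the fatty acid-binding protein Fabp5 lower at 10.01, 9.36 and 9.85 against 12.44, 12.61 and 12.32 (difference -2.72, SE 0.18, adjusted p = 9.44e-05). Of 34 detoxifying enzymes, 16 were higher and 10 lower, and without PMSG-treated ESR1KO replicate 3, 8 and 8. The flavin monooxygenases Fmo1 (3.39, SE 0.22, adjusted p = 8.69e-05) and Fmo2 (3.63, SE 0.50, adjusted p = 0.00328, and 2.91 without PMSG-treated WT replicate 3) were higher. Of 32 intracellular signalling genes, 11 were higher and 9 lower, and without PMSG-treated ESR1KO replicate 3, 5 and 7. The G protein subunits Gng4 and Gng2 differed in opposite directions (2.30, SE 0.28, adjusted p = 0.00172, and -2.48, SE 0.28, adjusted p = 0.00128), and Rasgrf1, an activator of Ras, was higher by 2.21 (SE 0.36, adjusted p = 0.00701).

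**Figure D4:**
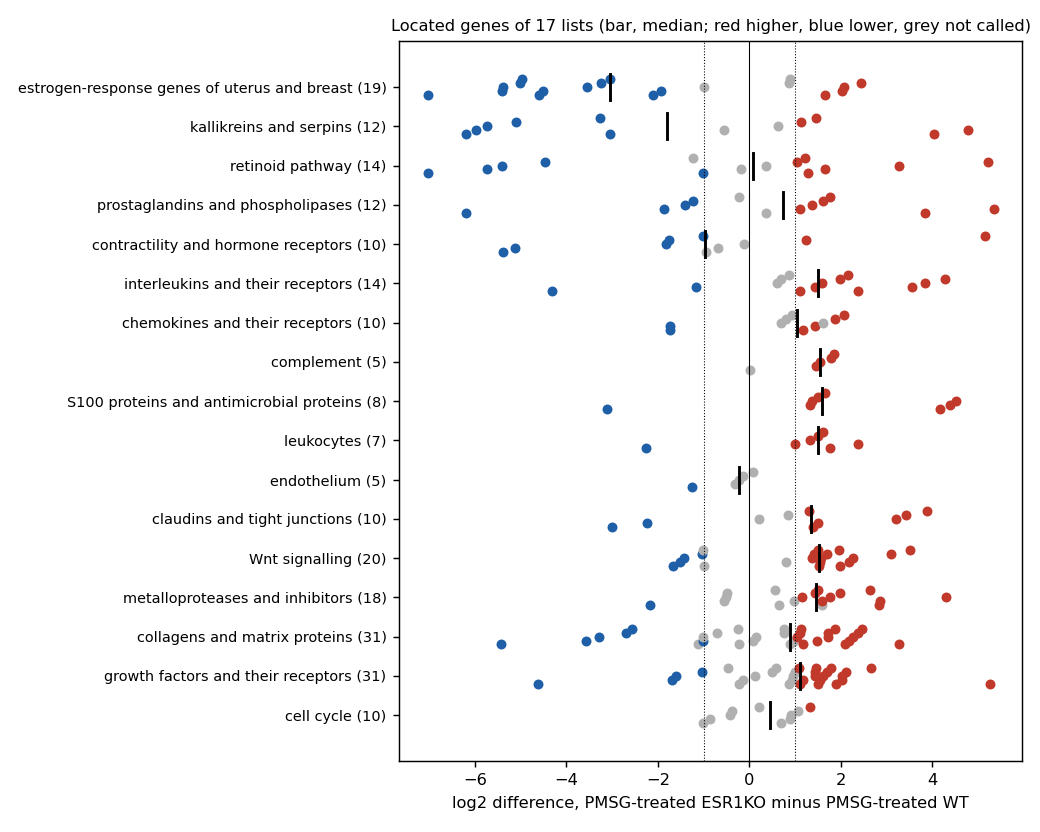
Log2 difference of each located gene (point) between PMSG-treated ESR1KO and PMSG-treated WT in 17 of the gene lists, with the number located in parentheses and the median as a black bar; dotted lines mark a 2-fold difference. The medians of the estrogen-response and kallikrein lists are the lowest, at -3.05 and -1.80. Those of the interleukin, complement and Wnt lists lie between 1.51 and 1.54.

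The markers of other cell types were represented thinly. No gene of the list for ciliated cells (65 on the array) or of that for ovarian granulosa, theca and oocyte (18) was located, so that neither could be followed here. Of the 16 markers of oviduct secretory epithelium, 3 were located, Dcpp3 being lower and Ltf and Muc1 higher. For mesothelium, the 2 located genes had a summed log2 signal of 19.8 to 20.5 in PMSG-treated ESR1KO and 17.8 to 18.5 in PMSG-treated WT. For adipocytes, the 2 located genes had a summed log2 signal of 15.02 to 15.43 and 15.74 to 20.42, respectively, and the smooth muscle genes are given above. For endothelium, the 5 located genes had a mean signal of 6.90 to 7.20 in PMSG-treated ESR1KO and 7.34 to 7.42 in PMSG-treated WT. The part of cell composition in these differences was not tested.

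Untreated WT levels usually lay between those of the PMSG-treated groups. Among rows called higher, the untreated WT mean lay between the means of PMSG-treated ESR1KO and PMSG-treated WT in 1071 of 1245, below both in 163 and above both in 11. Among rows called lower it lay between in 634 of 777, above both in 116 and below both in 27. The rows were chosen by the 2 PMSG-treated groups, which by itself favours a mean of other arrays lying between them. The median group mean of the higher rows was 8.53 in PMSG-treated ESR1KO, 6.72 in PMSG-treated WT and 7.34 in untreated WT, and that of the lower rows 6.80, 8.96 and 8.29. Single genes differed in this respect. For Avpr1a (2.51, 2.33 and 2.66 in untreated WT) and Il33 (8.01, 7.76 and 7.79), the untreated WT arrays overlapped those of PMSG-treated WT, and PMSG-treated ESR1KO lay above both. For Oxtr (4.32, 5.01 and 5.02), Aqp8 (4.28, 4.41 and 5.10) and Klk1b1, untreated WT lay nearer to PMSG-treated ESR1KO. For Hsd11b2, untreated WT (6.93, 6.92 and 6.36) lay below both PMSG-treated groups, and for Fbln2 (6.09, 7.42 and 7.37) it overlapped PMSG-treated ESR1KO. Untreated mice were also 2 days younger at collection.

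Not all named genes were called equally firmly. Single-gene results under the alternatives are given for the called genes chosen by the naming rule, 132 in all. They are not given for genes named above only with a difference. Of these 132, 108 were called under every alternative that tested them and 24 lost the call under at least 1, none with a change of direction. The alternatives that ended most of these calls were the methods' unmoderated model (20), leaving out PMSG-treated ESR1KO replicate 3 (19), only the 6 arrays compared (16) and leaving out PMSG-treated ESR1KO replicate 2 (14). The endothelial adhesion gene Pecam1 (difference -1.26, adjusted p = 0.0472) was called in 5 of 16 alternatives, and its call held without PMSG-treated ESR1KO replicate 2 or PMSG-treated WT replicate 3 but without no other single array (adjusted p up to 0.179). Pparg, a nuclear receptor of fat cells, read 2.90, 2.72 and 2.51 against 6.03, 4.61 and 8.48 (difference -3.67, adjusted p = 0.0273), and its call was lost without any single PMSG-treated ESR1KO array or PMSG-treated WT replicate 1 (adjusted p from 0.0605 to 0.107), while leaving out PMSG-treated WT replicate 3 gave a difference of -2.61 and leaving out replicate 2 one of -4.55. The adaptor of Toll-like receptors Myd88 (difference 1.05) lost its call without PMSG-treated ESR1KO replicates 2 or 3 or PMSG-treated WT replicates 1 or 3 (differences 0.83 to 1.08). Of the NF-kB inhibitors, Nfkbie was higher (difference 1.62, adjusted p = 0.00535) and Nfkbia lower (difference -1.27, adjusted p = 0.00759), and the latter call was lost with only the 6 arrays compared (adjusted p = 0.0506).

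The other calls that depended on single arrays were spread over several gene groups. The chemokine Cxcl17 (difference 1.88, adjusted p = 0.0171) and the cyclin Ccna1 (1.33, adjusted p = 0.0149) were not called when PMSG-treated ESR1KO replicate 2 or 3 was left out (adjusted p from 0.0594 to 0.0691). The antiviral enzyme Oas1a (-1.52, adjusted p = 0.0165) was not called when PMSG-treated ESR1KO replicate 3 or PMSG-treated WT replicate 1 was left out (0.0779 and 0.0551). Leaving out PMSG-treated ESR1KO replicate 3 also ended the calls of the mucin Muc4 (3.00), the keratin Krt13 (3.34) and the fatty acid transporter Slc27a2 (2.06), with adjusted p from 0.0512 to 0.057. Leaving out PMSG-treated WT replicate 3 gave smaller differences for Muc4 (2.28), Krt13 (2.54) and the metalloprotease Mmp10 (2.20 against 2.86), which were still called. The transcription factor Foxq1 (2.49) was not called when PMSG-treated ESR1KO replicate 1 or 3 or untreated WT replicate 3 was left out (adjusted p from 0.0518 to 0.116), and differed by 1.81 when PMSG-treated WT replicate 3 was. Ephb6, an ephrin receptor (2.03), lost its call when any single array other than PMSG-treated ESR1KO replicate 1 or PMSG-treated WT replicate 3 was left out. Abcb11, the bile salt export pump (-2.58), lost it for each PMSG-treated ESR1KO array, PMSG-treated WT replicates 1 and 2 and untreated WT replicate 3, and Slc25a35, a mitochondrial carrier (-1.95), for each ESR1KO and each untreated WT array. Slc25a18, another mitochondrial carrier (-1.91), lost it for PMSG-treated ESR1KO replicate 2 and PMSG-treated WT replicates 1 and 2, and the mesothelial gene Lrrn4 (1.39) for each ESR1KO array and PMSG-treated WT replicate 1. Hoxc5, a homeobox gene (1.03), fell under 2-fold when replicate 3 of either group was left out (differences 0.90 and 0.89).

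Around the 2-fold limit, Lima1, Mrc1 and 1700012D14Rik were just inside it with differences of 1.00, and Lima1 and 1700012D14Rik, like Mrc1, lost their call without some single arrays (Lima1 without PMSG-treated ESR1KO replicates 2 or 3 or PMSG-treated WT replicate 1, and 1700012D14Rik without these or PMSG-treated WT replicate 2, at differences of 0.87 to 1.03). The genes 5730455O13Rik on the higher side and Mecr and 1110008P14Rik on the lower side were just outside it.

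**Figure D5:**
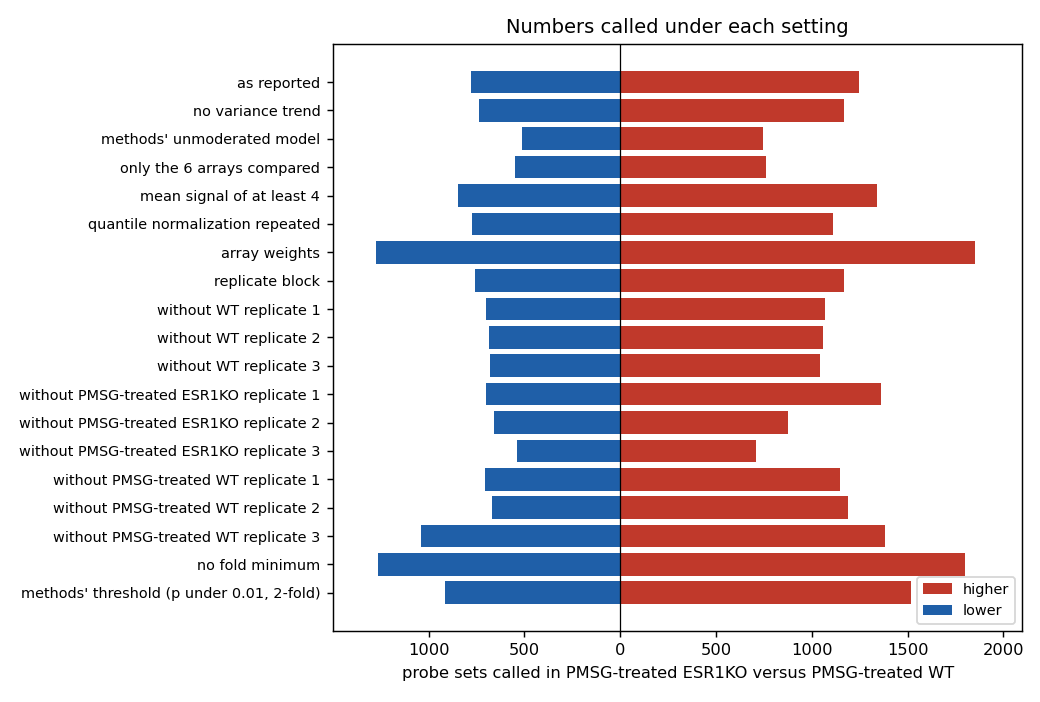
Number of probe sets called higher (red, to the right) and lower (blue, to the left) in PMSG-treated ESR1KO as reported (1245 and 777) and under each alternative. Under every setting more were higher than lower, from 710 against 538 without PMSG-treated ESR1KO replicate 3 to 1854 against 1275 with array weights.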

How the data were processed

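Per the labels and the study's methods, RNA was measured on Affymetrix Mouse Genome arrays, and the deposited log2 signals were made by the authors in Partek 6.6 by GC-RMA, with quantile normalization and with median polish of the probes. No detection calls were used. Rows (45101) of the 9 arrays in 1 row order were fitted in R 4.3.3 by limma 3.58.1 (lmFit, then eBayes with the trend option) and adjusted by Benjamini-Hochberg. Listed fold changes located rows within 0.0001 on the log2 scale; 2 decoys came as close. Symbols were checked indirectly, by adding the listed fold change of untreated ESR1KO against untreated WT to the untreated WT mean of the located row. A probe set of the listed symbol had that level, within 0.0002, on the untreated ESR1KO arrays for 1820 of 1827 rows (3 after shuffling). The 7 that differed are not named. On simulated data, 29, 36, 47 and 49 of 50 rows changed by 1.5, 2, 3 and 4 were called, and 4 unchanged rows. The number of arrays limits the precision. Named genes were Esr1, the 15 largest called per direction, up to 4 called members of each of 39 lists, uncalled members of 4 lists, and genes next to the 2-fold limit; genes given only with a difference were added with their values known. The members and lists were chosen with earlier results of these data known. Near copies were aligned globally. Alternatives are given in the closing section. Columns of the authors' comparisons were used only as a key to rows and for the check of symbols. Some results for single genes are left out here.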

Additional observations from a re-analysis of the deposited data

How the results depend on the processing

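The number of probe sets called (2022, of which 1245 higher and 777 lower) was 1255 (744 and 511) in the methods' unmoderated model, here without untreated ESR1KO, 1313 (763 higher) with only the 6 arrays compared, 3129 (1275 lower) with array weights and 3065 (1266 lower) with no fold minimum. With single arrays left out it ranged from 1248 to 2422, the higher from 710 to 1382 and the lower from 538 to 1040, lowest without PMSG-treated ESR1KO replicate 3. The other alternatives gave 1888 to 2436. With the replicate number as a block, 1926 were called. Same-numbered PMSG-treated ESR1KO and WT arrays deviated together with r = 0.356, 0.0253 and 0.0147, so that the numbers were not taken to pair samples. For untreated WT the values were 0.155, 0.312 and 0.123 with PMSG-treated ESR1KO and 0.226, -0.124 and 0.0771 with PMSG-treated WT. The block ended the calls of Pecam1, Pparg and Ptgfr among the named genes. The only reversed difference was that of Pla1a, which was not called, at 0.0320 with array weights. The causes were not tested. Weak signals limit what can be seen: 40.5% of rows had both group means near background, as had PMSG-treated WT for 16.9% of rows called higher and PMSG-treated ESR1KO for 18.7% of those called lower.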
